A study of Mus musculus with 2 samples.

Results

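The stem cell microRNA clusters miR-290 and miR-302 were examined for 5-hydroxymethylcytosine (5hmC) in E14, a mouse embryonic stem cell line in long-established use. Their neighbourhoods were taken by position in mm9. The miR-290 region was chromosome 7 from 3195001 to 3240000 (45 kb), with the cluster, from miR-290 to miR-295, at about 3218601 to 3220900. The miR-302 region was chromosome 3 from 127230001 to 127265000 (35 kb), with its cluster at about 127247001 to 127248500. These approximate cluster spans of 2.3 kb and 1.5 kb are called the cluster intervals. The regions held 280 and 209 of the 13025343 cytosines in the deposited table, 489 in all.

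The series comprised 2 libraries of 1 group, E14 genomic DNA at passage 12, with no treatment, mutant or control group named in the labels. Glucosylated DNA was cut with AbaSI, an endonuclease that cuts at a short distance from a glucosylated 5hmC, and the cut ends were sequenced. The table gave 1 read count per listed cytosine for both libraries together, 176006227 reads in total, with a lowest listed count of 2. There was therefore no replicate error and no test. Intervals below are exact binomial or Poisson intervals at a level of 95%, for counting error only. They take counts as independent. PCR copies are not independent molecules, so intervals on reads can be too narrow. Cytosines missing from the table were not measured as 0. AbaSI reads also do not give the share of DNA molecules modified.

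MicroRNAs are short RNAs that lower the output of messenger RNAs matching their seed, the bases 2 to 8. In the mouse, the miR-290 cluster is the most abundant microRNA source of naive embryonic stem cells, where its products promote the cell cycle and restrain differentiation. The miR-302 cluster makes microRNAs of the same kind and is known chiefly from the later, primed epiblast state. It is mostly silent in naive cells. TET enzymes make 5hmC from 5-methylcytosine, mainly at CG, and 5hmC in stem cells is known to mark enhancers and the surroundings of active promoters. Transcription was not measured in this series, so the activity of either cluster was not checked here.

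All 10 members, 7 of the miR-290 cluster and 3 of the miR-302 cluster, matched an entry of RefSeq (GRCm38.p6), which supplied 18 mature sequences and 9 hairpins. The mature 3p sequences supplied are shown because the clusters share their seed. Capitals mark bases 2 to 8. The entries used held no 3p sequence of Mir292 or Mir302a and no hairpin of Mir291a.
miR-291a-3p: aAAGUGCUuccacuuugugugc
miR-294-3p: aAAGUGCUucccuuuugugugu
miR-295-3p: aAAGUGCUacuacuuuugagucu
miR-302b-3p: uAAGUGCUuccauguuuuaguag
miR-290a-3p: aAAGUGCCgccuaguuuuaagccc
miR-291b-3p: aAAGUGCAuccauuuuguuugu
miR-302c-3p: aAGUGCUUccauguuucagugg
miR-293-3p: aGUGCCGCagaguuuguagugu
The first 4 of these, from both clusters, had the seed AAGUGCU. The seeds of miR-290a-3p and miR-291b-3p, AAGUGCC and AAGUGCA, began with the same 6 bases. The listed form of miR-302c-3p starts 1 base further along, so its seed reads AGUGCUU. The 5p products formed other groups. Those of miR-290a, miR-292a and miR-293 shared CUCAAAC, those of miR-291a and miR-291b shared AUCAAAG, and those of miR-302b and miR-302c shared CUUUAAC. The seed of miR-302a-5p was CUUAAAC.

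The hairpins are shown for their CG dinucleotides, the usual place of 5hmC, in capitals.
Mir290a: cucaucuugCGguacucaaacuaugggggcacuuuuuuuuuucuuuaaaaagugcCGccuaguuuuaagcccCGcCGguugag
Mir292: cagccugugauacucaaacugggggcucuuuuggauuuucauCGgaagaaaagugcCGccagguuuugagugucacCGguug
Mir291b: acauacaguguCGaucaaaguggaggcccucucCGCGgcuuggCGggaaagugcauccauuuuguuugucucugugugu
Mir293: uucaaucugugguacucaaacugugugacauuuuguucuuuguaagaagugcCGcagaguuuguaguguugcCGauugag
Mir302a: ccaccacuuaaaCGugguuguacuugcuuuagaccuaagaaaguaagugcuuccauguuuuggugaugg
Mir302b: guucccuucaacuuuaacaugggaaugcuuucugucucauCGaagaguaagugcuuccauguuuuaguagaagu
The 6 hairpins supplied for the 7 miR-290 members held 13 CG over 477 nt, or 2.73 per 100 nt, in 4 of the hairpins. Those of Mir294 and Mir295 held 0. The 3 hairpins supplied for the miR-302 members held 2 CG over 211 nt, or 0.948 per 100 nt. Hairpins outside these members were not counted for either cluster. The CG of miR-293-3p lies in its seed. That of miR-290a-3p spans the last base of the seed and the next, and so does that of miR-302a-5p, from the other cluster. In RefSeq both clusters are on the plus strand. The miR-290 cluster overlaps the long non-coding RNA D7Ertd143e and the span of Nlrp12, an innate immune receptor gene of the opposite strand. The miR-302 cluster lies inside Larp7, a binding protein of the 7SK RNA, also on the opposite strand. Single hairpins were not placed among the listed cytosines, since no mm9 sequence was used here.

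Over the whole regions, the miR-290 and miR-302 clusters lay in neighbourhoods with close 5hmC read densities. The miR-290 region had 3517 reads, or 78.2 per kb (75.6 to 80.8), and the miR-302 region had 2382 reads, or 68.1 per kb (65.4 to 70.8). The ratio was 1.15 (1.09 to 1.21). Chromosome 7 had more reads than chromosome 3, with 59.9 against 50.0 per kb. With each region divided by the mean of its own chromosome, the order turned and the ratio was 0.96. The miR-290 region lay 1.31 times (1.26 to 1.35) above chromosome 7, and the miR-302 region 1.36 times (1.31 to 1.42) above chromosome 3.

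The number of listed CG was alike too. A CG and its complement on the other strand form a dyad, which was counted as listed when either strand had a line. The miR-290 region had 182 dyads, or 4.04 per kb (3.48 to 4.68), and the miR-302 region had 129, or 3.69 per kb (3.08 to 4.38). The ratio of dyads per kb was 1.10 (0.871 to 1.39). Reads per dyad had a median of 11 (quartiles 7 and 24.8) in the miR-290 region and 13 (quartiles 7 and 21) in the miR-302 region. The medians of chromosomes 7 and 3 were 12 and 11.

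Among adjacent windows of 45 kb on chromosome 7, 69.1% of 3322 had fewer reads than the miR-290 region. Among windows of 35 kb on chromosome 3, 73.5% of 4473 had fewer than the miR-302 region. Set against all autosomes, these shares were 66.4% and 63.2%. Both regions thus stood above the median window and below the upper quartile of their chromosome. The median windows held 1471 and 823 reads, and the upper quartiles were 4304 and 2545. At percentile 8 the chromosome 7 windows still held 0 reads, while at percentile 1 those of chromosome 3 held 1.33 per kb. Such empty windows also count in the chromosome means above and in the shares of empty bins below. How much of them can be mapped was not analysed.

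**Figure D1:**
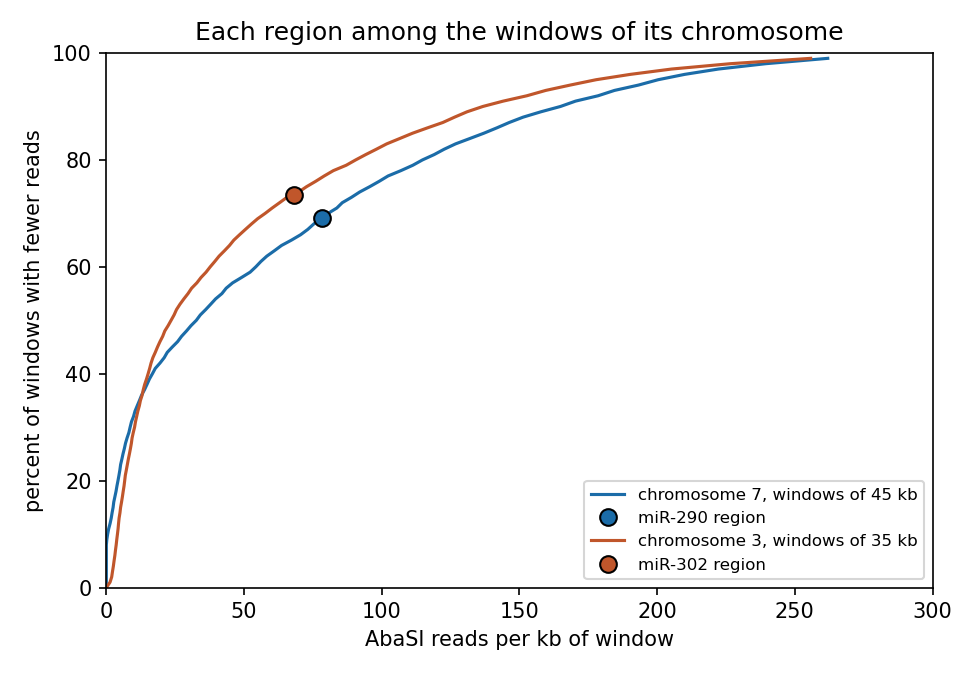
Percent of windows with fewer reads (vertical axis) against AbaSI reads per kb (horizontal axis) for adjacent windows of 45 kb on chromosome 7 and 35 kb on chromosome 3. The points mark the miR-290 region, at 78.2 reads per kb, and the miR-302 region, at 68.1; percentile 100 is left off each curve.

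In bins of 1 kb, 3 of 45 bins of the miR-290 region had no listed site, or 6.67% (1.40 to 18.3), against 35.1% of all bins on chromosome 7. In the miR-302 region 4 of 35 bins were empty, or 11.4% (3.20 to 26.7), against 31.8% on chromosome 3. On all autosomes the share was 27.3%. The median bin held 61 reads in the miR-290 region and 49 in the miR-302 region, while the median bins of chromosomes 7 and 3 held 13 and 11. Listed sites were therefore spread over most bins of both regions.

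Bins with at least 2 times the mean of autosomal bins, that is 144.5 reads, made up 15.7% of autosomal bins, 13.6% on chromosome 7 and 10.6% on chromosome 3. The miR-290 region had 8 of 45 such bins, or 17.8% (8.0 to 32.1). The miR-302 region had 2 of 35, or 5.71% (0.700 to 19.2). The miR-302 share depended on the placing of bins: it was 14.7% with bins shifted by 500 bp, 11.8% at 2 kb and 18.6% at 500 bp. The miR-290 share was then 20.5%, 13.6% and 17.8%, and the autosomal share 15.7%, 16.2% and 15.2%. At 1 kb both intervals included the background shares, so neither count stood out.

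The 5 fullest bins of the miR-290 region were scattered. The highest began at 3235001 with 223 reads on 15 sites, and the next began at 3196001 with 221 reads on 11 sites, near the opposite ends of the region. The bins from 3233001 and 3225001 held 200 and 188 reads. The fifth, from 3219001, lay inside the cluster interval with 182 reads on 24 sites, the most sites of any bin in the region. The fullest bin of the miR-302 region began at 127242001 and held 251 reads on 12 sites. It was followed by the bins from 127234001, 127244001, 127232001 and 127235001, with 178, 129, 127 and 122 reads. All 5 lay on the lower-coordinate side of the miR-302 cluster.

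**Figure D2:**
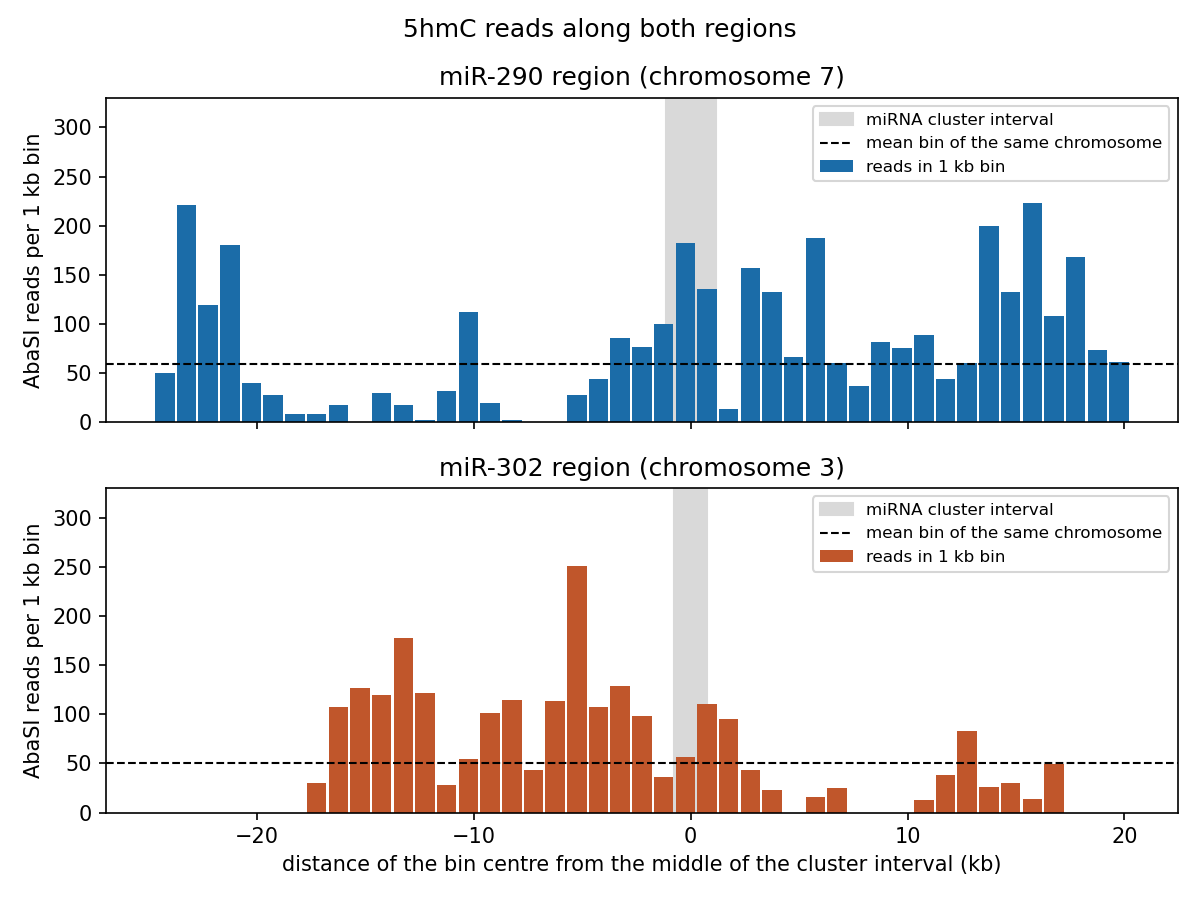
AbaSI reads in each 1 kb bin (vertical axis) against the distance of the bin from the middle of the cluster interval in kb (horizontal axis). Grey bands mark the cluster intervals and dashed lines the mean bin of the same chromosome. The miR-302 bins thin out to the right of the cluster, and the miR-290 bins thin out between about -20 and -5 kb, apart from a bin of 112 reads near -10 kb.

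The flanks of each cluster were unequal, in opposite coordinate directions. How unequal neighbouring stretches of such lengths are elsewhere on these chromosomes was not analysed. Around miR-290 the higher-coordinate flank had 103 reads per kb (98.8 to 108) and the lower-coordinate flank had 49.7 (46.9 to 52.7), a ratio of 2.08 (1.93 to 2.24). Around miR-302 the lower-coordinate flank had 104 reads per kb (98.7 to 108) and the higher-coordinate flank 33.5 (30.8 to 36.4). There the ratio of the higher to the lower flank was 0.324 (0.294 to 0.356). For dyads per kb the corresponding ratios were 1.43 (1.03 to 2.01) and 0.600 (0.408 to 0.874), so both the number of listed CG and the reads at each contributed. The median dyad held 16.5 reads in the higher and 11 in the lower flank of miR-290, and 8 in the higher and 17 in the lower flank of miR-302.

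Each region had a stretch without listed sites. In the miR-290 region the bins from 3212001 to 3214000 were empty, and the sites on either side, at 3211036 and 3214562, were 3526 bp apart. That stretch lies a few kb below the lower end of the cluster interval. In the miR-302 region the 3 bins from 127255001 to 127258000 were empty, between sites at 127254871 and 127258680, which were 3809 bp apart. Each was the longest distance of its region. Single distances at least as long made up 0.601% of those between neighbouring sites on chromosome 7 and 0.809% on chromosome 3. These shares do not tell how often a region of such length holds a stretch like this, which was not tested. From 5 to 10 kb beyond the higher end of the miR-302 cluster only 3 sites with 31 reads were listed, whereas the same distance on the lower side held 38 sites with 427 reads. How much of these stretches is CG or can be mapped was not analysed here.

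The cluster intervals differed by more than the regions did. The miR-290 interval held 369 reads on 41 sites, or 160 reads per kb (144 to 178), which was 2.18 times (1.95 to 2.42) the rest of its region. With at least 10 reads required per site the ratio was 1.44. The miR-302 interval held 69 reads on 8 sites, or 46.0 per kb (35.8 to 58.2), which was 0.666 times (0.517 to 0.846) the rest. That direction turned with a wider interval: with 1 kb added at both ends the ratio was 1.22. The miR-302 value also rests on few sites, and a single cytosine held 37.7% of its reads. Between the intervals the ratio of reads per kb was 3.49 (2.69 to 4.58). The ends of both intervals are approximate, and the size of this contrast depended on them. With 1 kb added at both ends the miR-290 interval had 114 reads per kb and the miR-302 interval 81.4, a ratio of 1.40 (1.21 to 1.63).

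The density of the miR-290 interval came from many listed CG with few reads each. It had 33 dyads, or 14.3 per kb (9.88 to 20.1), against 3.49 per kb (2.95 to 4.10) in the rest of the region, a ratio of 4.11 (2.73 to 6.03). The miR-302 interval had 4 dyads, or 2.67 per kb (0.727 to 6.83). The median dyad of the miR-290 interval held 8 reads (quartiles 6 and 11), and the median dyad of the rest held 13 (quartiles 7 and 28). In number of listed sites the interval exceeded 95.6% of the 65009 windows of 2.3 kb on chromosome 7, and in reads 88.0%. The miR-302 interval exceeded 72.1% and 71.5% of windows of 1.5 kb on chromosome 3. The number of CG available in either interval was not known from the files, so listed dyads per kb are not rates per CG. The miR-290 hairpins counted above also held more CG per 100 nt than the counted miR-302 hairpins. The part of CG number in the difference was not tested.

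**Figure D3:**
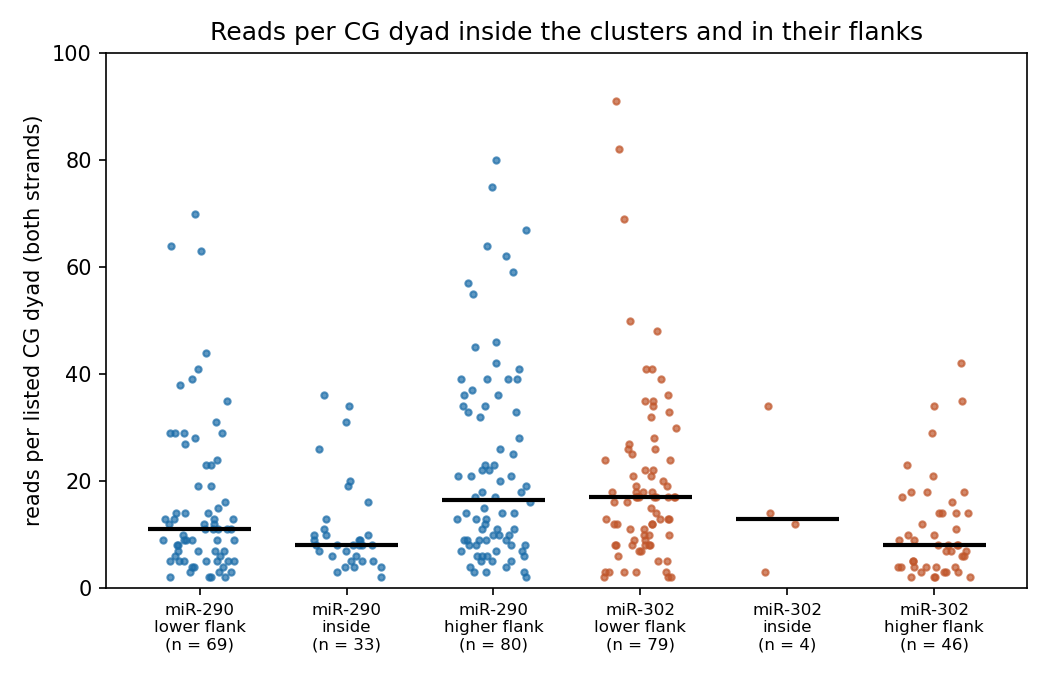
Reads per listed CG dyad, both strands summed (vertical axis), inside each cluster interval and in its flanks. Each point is a dyad and each black line a median; the medians inside are 8 reads for miR-290 (33 dyads) and 13 for miR-302 (4 dyads).

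Within the miR-290 interval, the dyads were crowded in the lower part and carried more reads in the upper part, by coordinate. The bin from 3219001 had 20 dyads and a median of 7.5 reads per site, and the bin from 3220001 had 6 dyads and a median of 12. The dyad with the most reads, at 3220396, had 28 on the plus and 8 on the minus strand. The next was at 3220733, with 12 and 22 reads, near the upper end. The dyad at 3220416 was listed on the minus strand only, with 31 reads. The dyad at 3220516 had 19 and 7 reads.

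The other 4 of the 8 dyads with the most reads lay in the crowded part. The dyad at 3219445 had 20 reads on the plus strand, and that at 3218847 had 16, also on the plus strand alone. The dyad at 3219662 had 5 plus and 14 minus reads, and that at 3219266 had 4 and 9. The dyads with the fewest reads were at 3218813, with 2 on the plus strand, and 3218929, with 3 on the minus strand. In all, 12 of the 33 dyads reached 10 reads. That share was lower than in the rest of the region, with 93 of 149 dyads, and on chromosome 7, with 289786 of 480901. The strongest dyad of the interval, at 36 reads, was 25th by reads among the 182 dyads of the region.

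The 4 dyads of the miR-302 interval were at 127247051, 127247076, 127247717 and 127248045. The first had 8 plus and 26 minus reads, and the second 4 and 10. The others were listed on the minus strand only, with 3 and 12 reads. The minus strand thus held more reads in 4 of 4, and 54 of the 69 reads of the interval; the plus strand had 21.7% (12.7 to 33.3). Over the whole region the plus strand held 48.4% of reads (46.3 to 50.4). In the miR-290 interval it held 46.9% (41.7 to 52.1) and in the miR-290 region 51.2% (49.5 to 52.8). The miR-302 share comes from 8 listed cytosines whose reads are not independent.

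**Figure D4:**
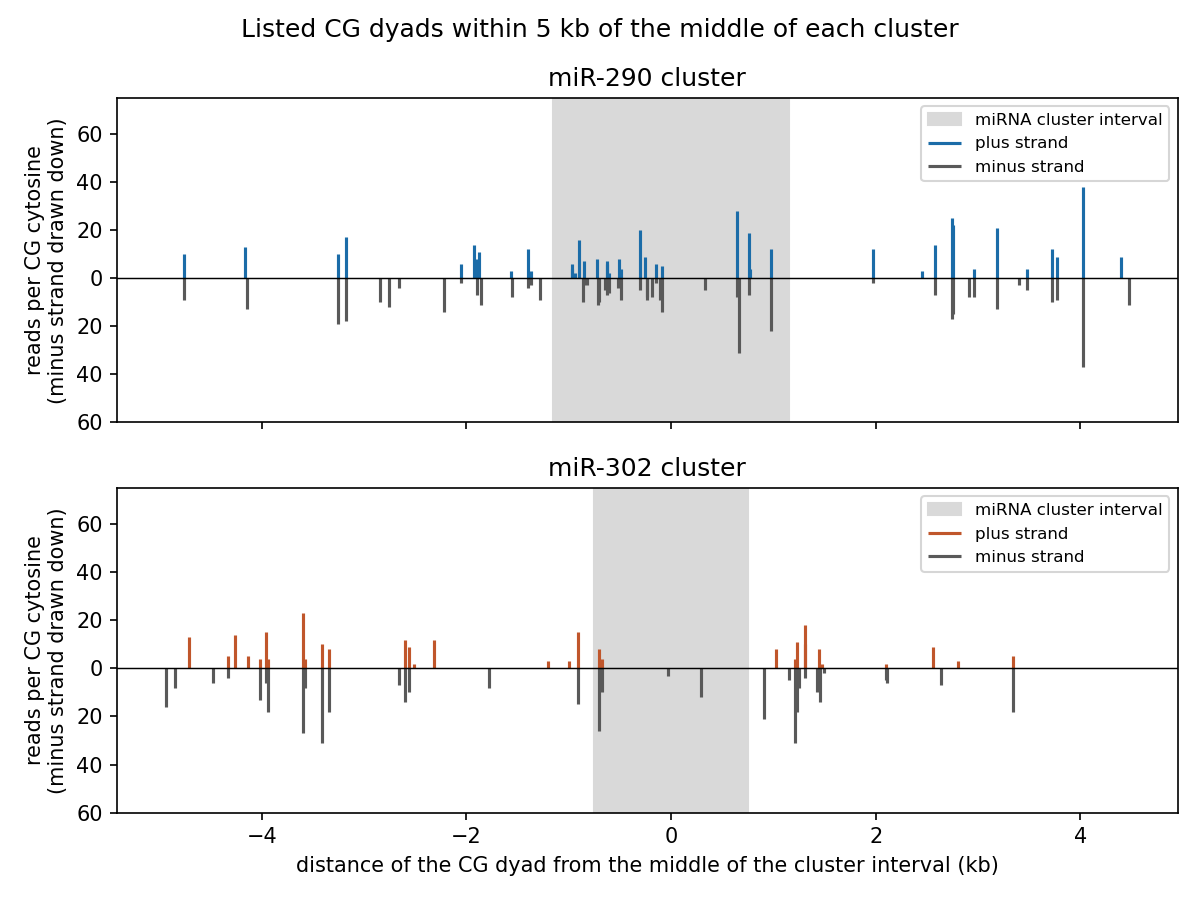
Reads at each CG cytosine (vertical axis, plus strand up, minus strand down) against distance from the middle of the cluster interval in kb (horizontal axis), for listed dyads within 5 kb. Grey bands mark the cluster intervals, with 33 listed dyads for miR-290 and 4 for miR-302.

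The dyads with the most reads of either region lay outside the cluster intervals. In the miR-290 region they were at 3236083 with 30 plus and 50 minus reads, at 3223780 with 38 and 37, and at 3196504 with 27 and 43. In the miR-302 region the highest, at 127242302, had 9 plus and 82 minus reads. The second, at 127242281, had 82 on the plus strand alone. The third, at 127241982, had 34 and 35.

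The equal counts of 82 belong to a pair of cytosines of the class 2CG, on opposite strands 22 bp apart. AbaSI recognises a modified cytosine and cuts between it and a second cytosine on the other strand, so a pair of candidates can flank a single cut. The miR-302 region had 6 such 2CG pairs at 21 to 25 bp, 6 with equal counts, and the miR-290 region had 7, of which 6 were equal. If each pair shares its reads, the miR-302 maximum is counted at both cytosines. A weight of 0.5 for the classes 2CG and 2CH gave 73.9 reads per kb in the miR-290 region and 61.0 in the miR-302 region. In the miR-290 interval, the cytosines at 3220396 and 3220417 were a 2CG pair with 28 and 31 reads. The class 2CG made up 7 of the 41 sites there, 11 of 239 in the rest of that region and 0 of 8 in the miR-302 interval. For 2CH these numbers were 0, 11 and 2. Of all sites, 2CG made up 7.82% on chromosome 7 and 7.81% on chromosome 3, and 2CH 4.31% and 3.51%. The weight was not applied to the intervals, so their ratios of 2.18 and 3.49 count any shared reads at both cytosines. The dyad ratio of 4.11 likewise counts both dyads of any such pair.

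Listing on both strands was found for 72 of 182 dyads of the miR-290 region, or 39.6% (32.4 to 47.1), and for 52 of 129 of the miR-302 region, or 40.3% (31.8 to 49.3). Chromosomes 7 and 3 had 36.3% and 33.7%. With at least 10 reads required per site, the shares were 33.7% in the miR-290 region and 22.2% in the miR-302 region. Inside the miR-290 interval it was 8 of 33, or 24.2% (11.1 to 42.3), against 43.0% (34.9 to 51.3) in the rest of that region. These counting intervals overlap. Reads per dyad were also lower inside, as given above, and the part of that in the share was not tested. Among dyads on both strands, counts differed by more than 3-fold in 16 of 72 in the miR-290 region (22.2%, 13.3 to 33.6) and in 17 of 52 in the miR-302 region (32.7%, 20.3 to 47.1). Both chromosomes had 21.8%.

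Cytosines outside CG, at CA, CT or CC, made up 26 of the 280 sites of the miR-290 region and 28 of the 209 of the miR-302 region. CG was thus 90.7% (86.7 to 93.8) and 86.6% (81.2 to 90.9) of sites, below the 93.1% of chromosome 7 and the 94.3% of chromosome 3. The chromosome 3 share lay outside the interval of the miR-302 region. Of its 28 sites outside CG, 19 were of the paired class 2CH, against 22562 of 36723 on chromosome 3. The bins from 127231001 and 127234001 held 6 sites outside CG each. The highest sites outside CG were a pair at 127234626 and 127234649 with 33 reads each. In the miR-290 region the highest was a CA cytosine at 3209030 with 31 reads. Inside the miR-290 interval 0 of 41 sites were outside CG, which allows a share of up to 7.32% as 3 counts of the total; the exact interval of the CG share was 91.4 to 100%. The miR-302 interval had 2, a CA and CT pair with 3 reads each.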

How the data were processed

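Genomic DNA of E14 cells was profiled in 2 libraries. Per the labels' protocols, 100 ng was glucosylated, digested with AbaSI, ligated to a biotinylated adapter, captured and amplified for 16 cycles. The submitters' processing notes name CASAVA 1.8.2, Bowtie and the build mm9. The joining of libraries, read filters and the rule from cut to cytosine are not stated there. The deposited values are raw read counts per cytosine, in 1 count column. Positions were made 1-based. CG sites 1 base apart on opposite strands were joined into dyads. Adjacent windows and 1 kb bins covered each chromosome between its outermost listed sites. Shares have Clopper-Pearson intervals, counts per kb Poisson intervals, and ratios conditional binomial intervals. Named dyads were all inside an interval if at most 12, otherwise the 8 highest and 2 lowest; also the 3 highest of each region, the 5 fullest bins and runs of empty bins. The highest cytosines outside CG were chosen after their values were seen. Members and lists were chosen with earlier results of these data known. Functions were tested on simulated sites. Python 3.11.15, numpy 2.4.6, pandas 2.3.3 and scipy 1.17.1 were used.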

Additional observations from a re-analysis of the deposited data

How the results depend on the processing

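No paired analysis was possible because the table pools both libraries of a single group, and for the same reason no fit without a library was possible. Of 76 alternative values for 18 results, 39 stayed within the counting interval of the value reported, 35 moved outside it and 2 crossed a ratio of 1. These 2 were the ratio of the regions divided by own chromosome (0.96) and the miR-302 interval widened by 1 kb against the rest (1.22). In the miR-290 and miR-302 regions, reads per kb were 74.8 and 64.1 with at least 5 reads per site, 59.4 and 50.7 with at least 10, 73.9 and 61.0 with 2CG and 2CH at a weight of 0.5, and 72.9 and 60.8 with CG sites only. Their ratio was 1.04 with each site counted once, 1.21 (1.213) with that weight and 1.08 with 15 kb on either side of the intervals. Dyads per kb were 2.04 and 2.06 with at least 10 reads, and 3.03 in the miR-302 region with at least 5. Mean reads per dyad were 19.7 and 19.0 with at least 5 reads, 27.5 and 22.6 with at least 10, and 16.2 in the miR-290 region with 15 kb flanks. Dyads on both strands were 33.7% and 22.2% with at least 10 reads and, as alternatives chosen after seeing the data, 24.2% and 50.0% in the intervals alone. Empty bins of the miR-290 region were 21.1% at 500 bp and 22.2% with at least 10 reads, against 41.1% and 49.6% of autosomal bins at these settings. Bins past 2 times the mean in the miR-302 region ranged from 5.71% to 18.6%, the last at 500 bp, where 15.2% of autosomal bins were past it; with shifted bins the shares were 14.7% and 15.7%. The miR-290 interval against the rest was 1.54 when widened, 3.18 with sites counted once and 1.44 with at least 10 reads; the miR-302 interval was 0.889 with sites counted once. The ratio of the intervals, with alternatives chosen after seeing the data, was 1.40 when both were widened by 1 kb and 2.62 with at least 10 reads. Percentiles were 66.4 and 63.2 among autosomal windows, 66.7 for sites of the miR-290 region, and, chosen after seeing the data, 88.0 and 71.5 for the intervals. A higher minimum leaves fewer sites; the cause of the other changes was not tested. The miR-302 interval rests on 8 sites with 69 reads.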
